A study of Saccharomyces cerevisiae with 6 samples.

Results

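The maltose and isomaltose genes of budding yeast were followed in a β-carotene-producing strain and in its parent, CEN.PK2-1C. The group was set by name and holds 10 genes of the 6445 in the count tables: the permease genes MAL11, MAL31, MPH2 and MPH3, the maltase genes MAL12 and MAL32, the isomaltase genes IMA1 and IMA2, and the activator genes MAL13 and MAL33. All 10 were found in every table and all 10 passed the filter on low counts. RNA came from cell pellets, 3 samples of each strain, grown in YPD, a rich medium with glucose, for 18 h at 30 °C with shaking at 250 rpm. How much glucose was left at 18 h was not known here. The producer has the genotype label CrtI/E/YB, the names of carotenoid synthesis genes, and the parent the label WT. The parent is also the background of the producer, so features of CEN.PK2-1C are common to both groups. The labels do not say that replicates were separate cultures or how many producer clones were used, so p-values here reflect the spread among these samples alone, and that spread may be technical.

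Maltose is a disaccharide of glucose. Yeast takes it up with a proton-coupled permease, splits it inside the cell with maltase, and switches both genes on through a zinc-cluster activator encoded beside them. A complete MAL locus therefore holds a permease gene, a maltase gene and an activator gene, and such loci lie near chromosome ends. Isomaltases of the IMA family are relatives of maltase that act on isomaltose and similar sugars. Glucose represses the maltose genes, in part through the repressor Mig1, which binds GC-rich sites in their promoters, and it also leads to removal of the permease from the membrane. CEN.PK strains are known for an allele of another maltose locus, MAL2, whose activator works without maltose. The reference genome comes from strain S288C and has the MAL1 and MAL3 loci but no MAL2 locus, so it is not known here under which listed gene transcripts of such a copy would be counted.

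In the reference assembly R64, the assembly of build sacCer3, MAL33 (YBR297W), MAL31 (YBR298C) and MAL32 (YBR299W) form the MAL3 locus at the right end of chromosome II, between 800523 and 807105. MAL31 and MAL32 point away from each other across a gap of 875 bp. MAL13 (YGR288W), MAL11 (YGR289C) and MAL12 (YGR292W) form the MAL1 locus on chromosome VII, between 1070293 and 1078353, where MAL11 and MAL12 diverge across 785 bp. IMA1 (YGR287C; chromosome VII, 1067222 to 1068991) adjoins MAL13. IMA2 (YOL157C) lies on chromosome XV, 22525 to 24294, MPH2 (YDL247W) on chromosome IV, 5985 to 7814, and MPH3 (YJR160C) on chromosome X, 738008 to 739816. The distance to the nearest chromosome end ran from 5935 bp for MPH3 to 22524 bp for IMA2.

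**Figure D1:**
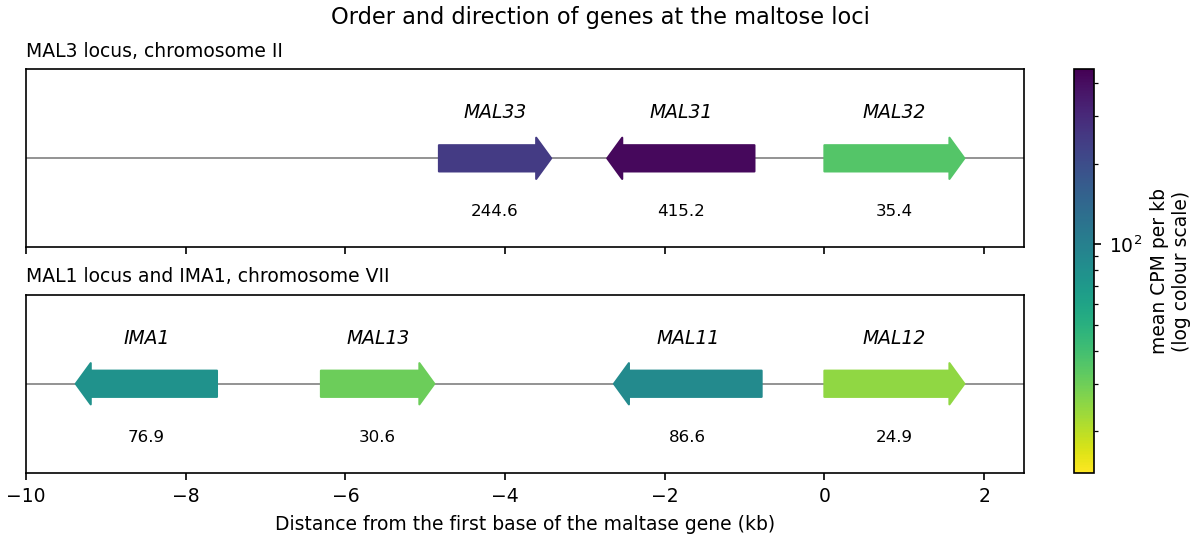
Map of the MAL3 locus and of the MAL1 locus with IMA1, with distance from the first base of the maltase gene in kb on the horizontal axis; arrows give the direction of transcription, and colour and the number under each arrow give the mean level over 6 libraries in CPM per kb (counts per 1e6, scaled by TMM, per kb of coding length). In both loci the permease and maltase genes diverge, and the permease gene has the higher level, at 415.2 against 35.4 on chromosome II and 86.6 against 24.9 on chromosome VII. MAL12 and MAL32 are near copies, so the split of their reads between the loci is uncertain. It is also not known under which gene transcripts of a MAL2 copy would be counted.

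Several of these genes are near copies, which limits what a count can say about 1 of them. The coding sequences of MAL12 and MAL32 differ at 8 of 1755 bases, an identity of 99.5%, and share an identical run of 492 bases. The following 51-base stretches show the closest pair of those differences, in capitals, with T249C and T258C counted from the first base of the reading frame and the MAL12 base first; they lie on the plus strand of R64 at chrVII:1076822-1076872 and chrII:805574-805624.
MAL12: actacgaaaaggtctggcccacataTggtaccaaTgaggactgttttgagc
MAL32: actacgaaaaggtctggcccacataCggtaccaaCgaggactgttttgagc
MPH2 and MPH3 had an identity of 98.7%, with 23 differing columns in an alignment of 1831, all of them gap positions, and shared an identical run of 1741 bases. IMA1 and IMA2 had an identity of 88.9%, while IMA2 had 98.6% with IMA3 and IMA4, isomaltase genes outside the group whose own coding sequences are identical. MAL13 and MAL33 had an identity of 71.2%, and MAL11 and MAL31 had 60.9%.

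How much of each gene is unique was measured with windows of 50, 100 and 150 bases, since the sources used here give no read length. Of the 100-base windows of the coding sequence, 100% occurred nowhere else in the genome for MAL11, MAL13 and MAL31, 99.7% for IMA1 and 98.2% for MAL33. The share was 67.3% for IMA2, 33.4% for each of MAL12 and MAL32, 4.79% for MPH2 and 3.63% for MPH3. The counts of MAL11, MAL13, MAL31, MAL33 and IMA1 thus rest mostly on unique sequence of this genome, and those of the maltase and MPH pairs mostly on shared sequence. No source used here says how the authors' counting divided shared reads, so each maltase gene and each MPH gene is uncertain on its own and is also given as a sum with its copy.

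**Figure D2:**
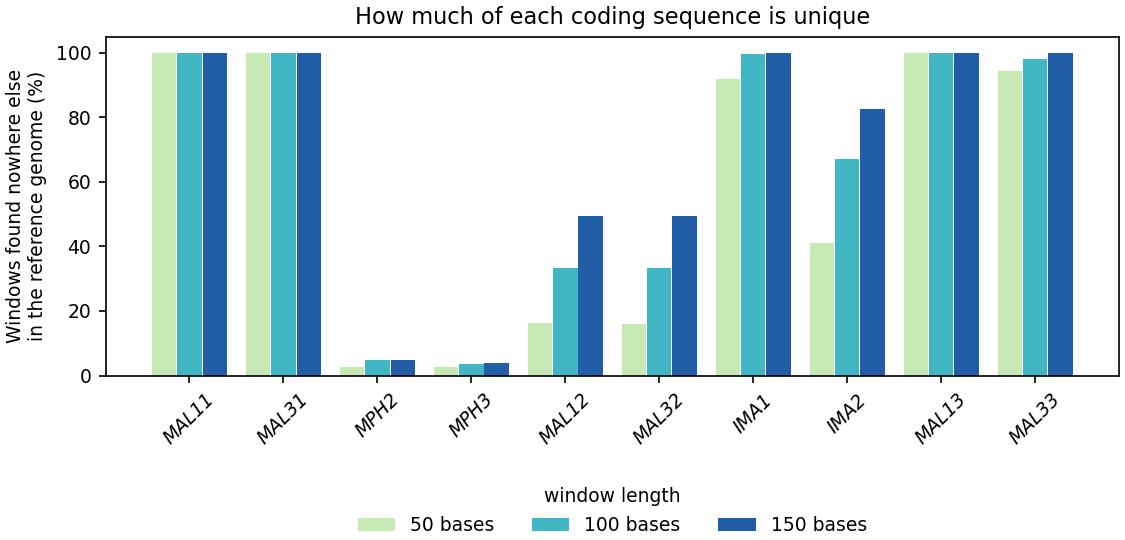
Share of windows of each coding sequence (in %) that occur nowhere else in the reference genome on either strand, for windows of 50, 100 and 150 bases. MPH2 and MPH3 stay at or below 4.94% at every window length, and MAL12 and MAL32 reach 49.5% at 150 bases.

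The upstream sequences of the members were read from the same assembly, from 350 to 51 bases before the reading frame on the strand of the gene. They are shown for MAL33, the member with the largest difference between the strains, for MAL31, the member with the highest level, and for MAL32 and MAL12, to compare the promoters of the maltase copies. Capitals mark words of the Mig1 type, the letters GGGG after CC, after CT, after GC or after GT, on either strand. The windows are chrII:800173-800472 (plus strand), chrII:804526-804825 (minus strand), chrII:805001-805300 (plus strand) and chrVII:1076249-1076548 (plus strand).
MAL33: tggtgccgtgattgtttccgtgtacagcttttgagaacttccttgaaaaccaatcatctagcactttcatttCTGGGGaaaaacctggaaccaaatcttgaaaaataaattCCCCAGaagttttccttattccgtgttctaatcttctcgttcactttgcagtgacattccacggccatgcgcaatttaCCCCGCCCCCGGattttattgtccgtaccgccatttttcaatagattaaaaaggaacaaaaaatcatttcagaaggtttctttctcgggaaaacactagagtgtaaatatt
MAL31: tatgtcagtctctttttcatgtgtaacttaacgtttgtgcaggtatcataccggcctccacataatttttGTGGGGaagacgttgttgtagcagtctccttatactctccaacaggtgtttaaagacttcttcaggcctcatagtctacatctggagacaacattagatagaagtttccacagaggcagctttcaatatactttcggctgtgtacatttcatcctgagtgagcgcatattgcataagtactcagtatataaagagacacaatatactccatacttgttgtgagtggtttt
MAL32: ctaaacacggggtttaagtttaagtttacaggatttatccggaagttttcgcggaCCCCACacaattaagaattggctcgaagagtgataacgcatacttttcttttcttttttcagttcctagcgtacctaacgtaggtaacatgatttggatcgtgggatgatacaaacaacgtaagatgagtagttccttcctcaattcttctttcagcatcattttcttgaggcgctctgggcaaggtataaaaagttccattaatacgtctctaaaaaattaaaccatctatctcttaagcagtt
MAL12: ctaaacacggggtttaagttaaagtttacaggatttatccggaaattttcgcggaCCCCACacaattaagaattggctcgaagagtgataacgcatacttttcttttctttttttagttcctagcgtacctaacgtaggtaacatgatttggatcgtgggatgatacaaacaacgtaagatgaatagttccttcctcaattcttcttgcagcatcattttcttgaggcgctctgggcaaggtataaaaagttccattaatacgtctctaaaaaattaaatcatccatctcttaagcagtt
The MAL33 window held 4 such words, at 278, 239, 161 and 155 bases before the reading frame, and those of MAL31, MAL32, MAL12 and MAL13 held 1 each. IMA1, MPH2 and MPH3 held 2 each, and MAL11 and IMA2 held 0. In all, 8 of the 10 windows had at least 1 word, against 13.1% of the 5994 windows of this length upstream of protein-coding genes. The windows of MAL12 and MAL32 were 97.7% identical and those of MPH2 and MPH3 99.7%, so these are not 10 separate sequences. The letters TATAAA, searched on both strands, were in 8 of the 10 windows and in 47.6% of all. A match is a description of the letters and says nothing about binding in these cells.

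The 6 libraries held between 48.4 M and 58.3 M estimated counts (M, 1e6), the lower totals being those of parent replicates 2 and 3, and the 10 members took between 0.148% and 0.195% of them. No pair of libraries was alike within sampling noise. GAL80, the repressor gene of the galactose system, was at 0, 0 and 2 counts in the producer and at counts of 6267, 4941 and 4891 in the parent, so on this gene the libraries fall into the labelled groups. The 6 a-cell markers summed to between 583 and 663 CPM in every library (counts per 1e6, scaled by TMM), most of it STE2 and STE6. The 4 α-cell markers summed to between 119 and 148 CPM, most of it SAG1, with none at 0. A larger a-cell sum is as in haploid a cells. Not every marker follows it, since SAG1, at 92.2 to 119 CPM, was above MFA1, MFA2, BAR1 and AGA2.

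The members differed widely in level. Set per kb of coding length, so that genes can be compared, MAL31, the maltose permease of the MAL3 locus, stood at 414, 400 and 507 CPM per kb in the producer libraries and at 394, 417 and 360 in the parental ones. It ranked 320 of 5918 protein-coding genes. MAL33, the activator gene of the same locus, stood at 269, 276 and 290 CPM per kb in the producer, against 234, 199 and 199 in the parent, and ranked 750. The third gene of that locus, the maltase gene MAL32, ranked 4762, with a mean of 35.4 CPM per kb over the 6 libraries.

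MAL11, a permease also known as AGT1 that takes up several α-glucosides, had a mean of 86.6 CPM per kb, and IMA1, the major isomaltase, had 76.9. The median over all ranked genes was 76.3. MAL13, the activator gene of the MAL1 locus, had 30.6 CPM per kb, the maltase gene MAL12 had 24.9, IMA2 had 24.4, and the permease genes MPH3 and MPH2 had 19.9 and 17.0. In this order MAL31, MAL33 and MAL11 had ranges over the 6 libraries that did not meet, and IMA1 was apart from MAL32. The ranges of MAL11 and IMA1 overlapped, and so did those of each neighbouring pair from MAL32 down to MPH2. The order among MAL32, MAL12, MPH3 and MPH2 is also uncertain because of shared reads.

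**Figure D3:**
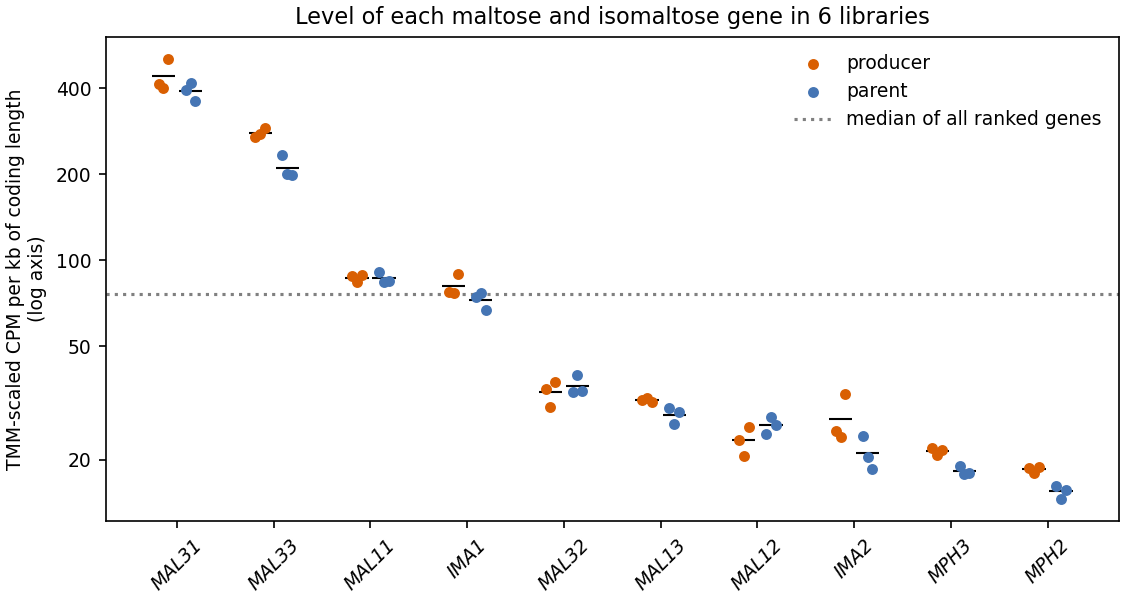
Level of each member in each library in TMM-scaled CPM per kb of coding length, on a log axis; points are libraries, short lines are means of 3, and the dotted line is the median of all ranked genes, 76.3. MAL31 and MAL33 stand above the others in all 6 libraries, and the parental points of MAL33, MAL13, MPH2, MPH3 and, narrowly, IMA1 lie below all producer points.

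Between the strains, no maltose or isomaltose gene passed the test. In edgeR's quasi-likelihood test with adjustment over all 6125 genes, 0 of the 10 members had an adjusted p under 0.05, while 70 of all genes, 1.14%, did (0.8% higher and 0.343% lower in the producer). At an unadjusted p under 0.05, 4 members counted, all higher in the producer, against 27.3% of all genes in either direction and 13.8% in that one. DESeq2 called 3 members, MAL33, MPH2 and MPH3, where it called 13.7% of all genes, and limma-voom called 0, where it called 1.04%. Members stood on the higher side in 8 of 10 cases, where 48.5% of all genes did. Their median log2 fold change was 0.17, against -0.01 for all genes tested. Of the members, 5 had producer libraries that all lay above the parental ones (MAL13, MAL33, IMA1, MPH2 and MPH3) and 0 had the reverse, against 16.6% and 17.2% of all genes, or 33.7% in either direction. MPH2 and MPH3 share nearly all of their sequence, and both are in the 4, the 3, the 8 and the 5 above. The 2 members on the lower side are the maltase copies. These counts are therefore not counts of separate genes. In these bulk samples a smaller share of cells with a transcript and less of it per cell cannot be told apart.

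Of the members, the activator gene MAL33 came closest to the threshold. It had 379, 388 and 408 CPM in the producer, against 330, 281 and 280 in the parent. Every producer library was above every parental library, and parent replicate 1 lay nearest to the producer. The means were 392 ± 15.0 and 297 ± 28.4 CPM (SD, n = 3), and the log2 fold change was 0.40 ± 0.09 (SE), a fold of 1.32 with a 95% interval of 1.15 to 1.51. The edgeR adjusted p was 0.0621, and 117 genes had a smaller unadjusted p. Without parent replicate 1, edgeR gave MAL33 a log2 fold change of 0.48 with an adjusted p of 0.0135, but 17.5% of all genes passed in that setting.

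The differences between the strains also followed the GC content of the gene: Spearman's correlation between GC content and log2 fold change was 0.649 across 5988 genes, which are no independent replicates. MAL33 has the lowest GC content of the members, 38.7%, and the others lie between 40.3% and 42.8%, with a median of 39.7% for all genes. After a correction for GC content MAL33 was at 0.45 ± 0.08 (SE) with an edgeR adjusted p of 0.0407, where 1.29% of all genes passed. Adding the replicate block to this correction left MAL33 at 0.45 (edgeR adjusted p 0.175), and 26 of 5988 genes passed. Deviations from the group means were not consistently shared by libraries of the same number, so this setting cannot decide whether the call holds. The median of the 10 members was 0.12 after the correction. IMA1 went from 0.16 to 0.05 and MAL13 from 0.17 to 0.11.

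MAL13, the activator gene on chromosome VII, had 46.1, 46.7 and 45.3 CPM in the producer, against 43.2, 37.8 and 41.8 in the parent. The groups did not overlap, but the gap between them was small. Its log2 fold change was 0.17 ± 0.08 (SE), with an edgeR adjusted p of 0.208. Its 95% interval, a fold of 0.991 to 1.28, includes no difference.

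Of the permeases, MAL31 had 763, 737 and 935 CPM in the producer, against 728, 769 and 664 in the parent. Producer replicate 3 was the highest library, and the other producer libraries lay within the parental range. The log2 fold change was 0.17 ± 0.12 (SE), with an edgeR adjusted p of 0.357. MAL11 had 162, 156 and 164 CPM in the producer, against 168, 155 and 157 in the parent, and the groups overlapped fully. Its log2 fold change was 0.01 ± 0.06 (SE), and its 95% interval reached from a fold of 0.910 to 1.11, the narrowest of the members. Of 17 other settings, 8 put MAL11 slightly below 0.

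MPH2 and MPH3 encode permeases that can carry maltose and related α-glucosides. MPH2 had 34.2, 32.8 and 34.5 CPM in the producer, against 29.6, 26.6 and 28.7 in the parent, and MPH3 had 39.7, 37.5 and 39.2 against 34.5, 32.3 and 32.5. The producer libraries were above the parental ones under both names, which share nearly all of their sequence. Summed to 1 feature, the pair had a log2 fold change of 0.24 ± 0.07 (SE) and an edgeR adjusted p of 0.0895. Without parent replicate 1 it passed, at 0.27 with an edgeR adjusted p of 0.0389. That setting let through 17.5% of all genes. Correcting for GC content took the summed pair to 0.21 (edgeR adjusted p 0.12). Taken singly, they were at 0.26 ± 0.08 and 0.23 ± 0.08, with edgeR adjusted p of 0.108 and 0.113.

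The maltase genes were the only members on the lower side. MAL12 had 41.2, 36.3 and 45.5 CPM in the producer, against 43.0, 49.4 and 46.4 in the parent, and MAL32 had 62.0, 53.8 and 65.5 against 60.8, 69.6 and 61.0. In both, producer replicate 2 was the lowest library and parent replicate 2 the highest, and the groups overlapped. The summed maltase pair was at -0.12 ± 0.09 (SE), with an edgeR adjusted p of 0.412. Without producer replicate 2 it was at -0.04, and without parent replicate 2 at -0.06. Singly, MAL12 was at -0.18 ± 0.10 and MAL32 at -0.08 ± 0.10, and without producer replicate 2 they were at -0.09 and -0.00034.

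Of the isomaltases, IMA1 had 137, 136 and 158 CPM in the producer, against 131, 136 and 119 in the parent. Producer replicate 2 and parent replicate 2 were nearly equal, at 135.6 and 135.5 CPM, so the groups met without overlapping. The log2 fold change was 0.16 ± 0.08 (SE), with an edgeR adjusted p of 0.239. IMA2 had 44.4, 42.6 and 60.0 CPM in the producer, against 42.9, 36.1 and 32.8 in the parent. Producer replicate 3 was its highest library. The log2 fold change was 0.39 ± 0.15 (SE), with the widest 95% interval of the members, a fold of 1.04 to 1.66, and the edgeR adjusted p was 0.135.

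The intervals reflect the spread among these samples alone, which may be technical. All 10 unadjusted 95% intervals excluded a difference of 2-fold in either direction, and 8 of them excluded 1.5-fold, the exceptions being MAL33 and IMA2. The share of all genes with such intervals was not computed. The maltase copies and the MPH copies share reads, so these are not counts of separate genes.

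**Figure D4:**
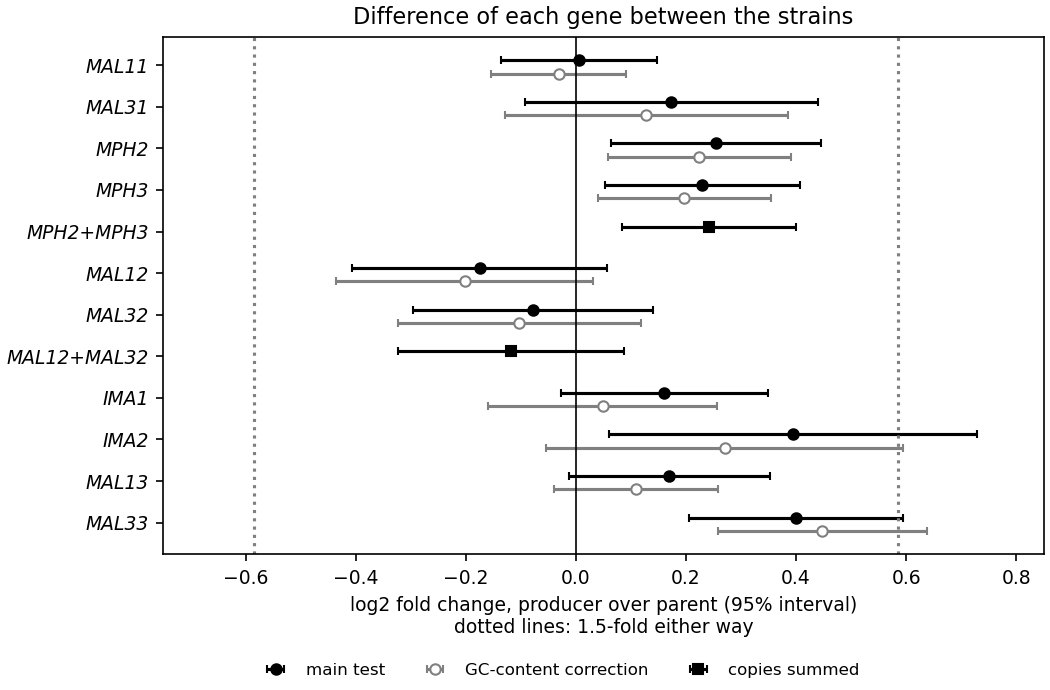
Log2 fold change of each member, producer over parent, with its 95% interval, for the main edgeR test (filled circles), after the GC-content correction (open circles) and for summed copies (squares); dotted lines mark 1.5-fold either way. MAL33 lies farthest from 0, at 0.40 and 0.45, and the maltase genes are the only members below 0 in the main test.

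Ratios within a library do not depend on how libraries are scaled, and 7 were computed between genes of 1 locus or 1 family, per kb. The permease gene MAL31 stood at 11.7, 13.0 and 13.6 times its divergent partner MAL32 in the producer, against 11.4, 10.5 and 10.4 times in the parent. The strains did not overlap in this ratio, with means of 12.8 ± 0.96 and 10.8 ± 0.55 (SD, n = 3). The corresponding ratio of MAL11 to MAL12 was 3.74 ± 0.33 in the producer and 3.29 ± 0.37 in the parent (SD, n = 3), and the strains overlapped. The activator genes MAL33 and MAL13 stood at a ratio of 8.60 ± 0.44 in the producer and 7.33 ± 0.49 in the parent, without overlap. MAL32 to MAL12 also did not overlap, at 1.48 ± 0.03 against 1.38 ± 0.06. For these 3 ratios the two-sided exact permutation test over libraries gave p = 0.1, the smallest it can give with 3 against 3, and 0.233 adjusted over the 7 ratios. MAL31 to MAL11, MPH3 to MPH2 and IMA1 to IMA2 overlapped between the strains, with exact p of 0.3, 0.6 and 0.3. Shared reads leave every ratio that involves MAL12, MAL32, MPH2, MPH3 or IMA2 uncertain. The other ratios are not free of doubt. Transcripts of a MAL2 copy, absent from the reference, could be counted under MAL11, MAL31, MAL13 or MAL33. The ratios were not corrected for GC content. They were chosen after the counts were seen, and the share of other gene pairs without overlap was not computed. Of single genes, 33.7% did not overlap between the strains in CPM.

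Producer replicate 3 stood high for part of the members, with MAL31, IMA1 and IMA2 among them. Relative to the mean of the 6 libraries on the log2 scale it stood at 0.30 for MAL31, 0.22 for IMA1 and 0.50 for IMA2, and at 0.33 and 0.31 for IMA3 and IMA4, which share reads with IMA2. For MAL11 it stood at 0.03, for MAL12 at 0.07 and for MAL13 at 0.06. For MAL33 it stood at 0.26 and for MPH2 at 0.16. It was the highest library for 5 of the 10 members (MAL31, IMA1, IMA2, MAL33 and MPH2), while 16.5% of all genes were highest in it. Parent replicate 3 had the lowest values of MAL31, IMA1 and IMA2, at -0.20, -0.19 and -0.37. Parent replicates 2 and 3 were each the lowest library for 4 of the 10 members. Of all genes, 31.8% were highest in parent replicate 2. Without producer replicate 3 the median of the members was 0.13, and MAL31 went from 0.17 to 0.06, IMA1 from 0.16 to 0.08 and IMA2 from 0.39 to 0.22.

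**Figure D5:**
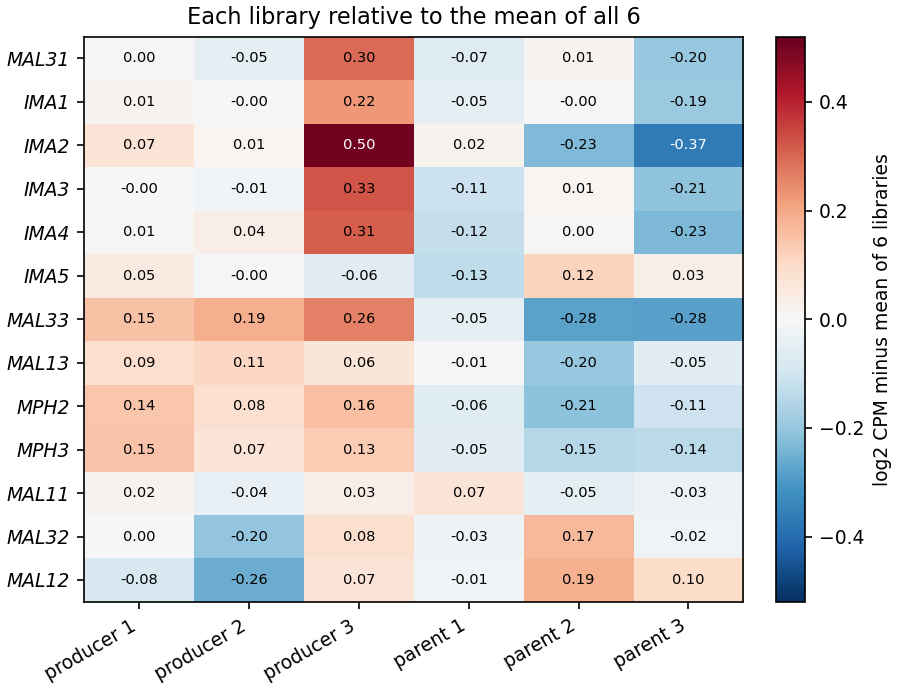
Log2 CPM of each member and of IMA3, IMA4 and IMA5 in each library, minus the mean of the 6 libraries; red is higher and blue lower. MAL31 and the isomaltase genes other than IMA5 are highest in producer replicate 3, and so are MAL33 and MPH2. All producer values lie above the parental ones for MAL33, MAL13, MPH2 and MPH3, and narrowly so for IMA1 and IMA4.

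The genes whose pattern over the 6 libraries was most like that of MAL31, by Pearson correlation of log2 CPM among 5530 genes of at least 10 CPM, were URN1 (0.997), STL1 (0.992), IMA3 (0.990), GPP2 (0.990) and RNA15 (0.987). STL1 is the glycerol symporter, GPP2 a glycerol phosphatase, RNA15 part of the machinery that cleaves mRNA ends, and URN1 a factor of pre-mRNA splicing. The points are 6 libraries that share their scaling and the high producer replicate 3, and 2.12% of the genes searched had a correlation over 0.9. Among the members, IMA1 had 0.98 with MAL31 and IMA2 had 0.89, while MAL33 had 0.63, the divergent MAL32 had 0.42, MAL11 had 0.34 and MAL12 had 0.13.

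The other α-glucosidase, regulator and invertase genes gave 0 of 6 past the threshold in edgeR, 0 at an unadjusted p under 0.05, 0 by DESeq2 or limma-voom, and a median log2 fold change of 0.18. The shares of all genes were 1.14% in edgeR, 27.3% at that unadjusted p, 13.7% by DESeq2 and 1.04% by limma-voom. With 6 genes, counts of 0 say little about the list. SUC2, the invertase that splits sucrose and is likewise repressed by glucose, had 2084, 1890 and 2229 CPM in the producer, against 1796, 1533 and 1846 in the parent, a log2 fold change of 0.26 ± 0.12 (SE) with an edgeR adjusted p of 0.197. The isomaltase genes IMA3 and IMA4, which cannot be told apart by sequence, were at 0.21 ± 0.12 and 0.24 ± 0.12, or 0.08 and 0.10 after the GC-content correction, and IMA5, a more distant member of the family, at -0.01 ± 0.11. YPR196W, a putative maltose activator, was at 0.03 ± 0.08 and ZNF1, a related zinc-cluster regulator, at 0.15 ± 0.09.

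In the glucose repression list 0 of 18 genes passed in edgeR, with 4 at an unadjusted p under 0.05, 2 called by DESeq2, 0 by limma-voom and a median of 0.03. Across all genes tested, 1.14% passed in edgeR and 27.3% had such an unadjusted p. DESeq2 called 13.7% of them and limma-voom 1.04%. In lists this short, a count of 0 says little about the list. MIG1, the repressor itself, had 413 ± 10.2 CPM in the producer and 410 ± 35.9 in the parent (SD, n = 3). It was named outside the rule. SIP2, a subunit of the Snf1 kinase, was at 0.39 ± 0.12 (SE) with an edgeR adjusted p of 0.105, and TUP1, the corepressor that Mig1 recruits, at 0.23 ± 0.09 with 0.136. After the GC-content correction they were at 0.18 and 0.01. Of the glucose phosphorylation genes 0 of 4 passed in edgeR, DESeq2 or limma-voom, with 0 at an unadjusted p under 0.05. HXK2, the main hexokinase in glucose, was at 0.24 ± 0.12, and GLK1, glucokinase, at 0.24 ± 0.13. After the GC-content correction HXK2 was at 0.16, and GLK1 turned to the lower side, at -0.09. Of the 5 genes of the Hsp90 machine, which the maltose activators need for their function, 0 passed by these tools or at an unadjusted p under 0.05, and HSP82 was at -0.30 ± 0.17 and HSC82 at -0.15 ± 0.15.

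Among the genes beside the members, 1 of 19 passed in edgeR, 7 had an unadjusted p under 0.05, DESeq2 called 6 and limma-voom 1, and the median log2 fold change was 0.15. Of all genes, 1.14% passed in edgeR, 27.3% had such an unadjusted p, DESeq2 called 13.7% and limma-voom 1.04%. BIO2, the biotin synthase gene next to IMA1 on the side away from the MAL1 locus, had 67.9, 57.2 and 63.2 CPM in the producer, against 96.6, 95.9 and 93.3 in the parent, so it was lower in every producer library. It fell by 0.60 on the log2 scale (SE 0.08), with an edgeR adjusted p of 0.0120, and was at -0.72 after the GC-content correction with an adjusted p of 0.00220. The call was lost without producer replicate 2, producer replicate 3 or parent replicate 3, at log2 fold changes of -0.54, -0.61 and -0.61 and adjusted p of 0.0579, 0.0506 and 0.0659. ZUO1, the next gene past BIO2, was at 0.04 ± 0.07, and PAU12, past MAL12, at 0.44 ± 0.15 with an edgeR adjusted p of 0.111. SOR2, a sorbitol dehydrogenase gene beside MPH2, was at 0.45 ± 0.10 (edgeR adjusted p 0.0659). SOR1, beside MPH3, was at 0.42 ± 0.11 (edgeR adjusted p 0.0724). How far SOR1 and SOR2 share reads was not measured. After the GC-content correction SOR2 was at 0.24, SOR1 at 0.22 and PAU12 at 0.12, and ZUO1 turned to -0.15. ZUO1, PAU12, SOR2 and SOR1 were named outside the rule.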

How the data were processed

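The authors deposited 1 table of estimated counts for each library, all of them whole numbers. StringTie files made after duplicate removal were the source, per the file headers, and that removal may lower abundant transcripts. The submitters' processing notes name build sacCer3 and the tools HISAT2, Picard, SAMtools, FastQC and DESeq2. No source used here gives versions, read length or strand setting.

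The 6 tables of 6445 genes were joined by name, and 6129 names matched RefSeq R64. The counts were already whole, so rounding altered nothing. The main test was edgeR 4.0.16 quasi-likelihood (R 4.3.3), two-sided, on genes kept by filterByExpr, scaled by TMM, with robust dispersion and the group alone, adjusted by Benjamini-Hochberg over 6125 genes at 0.05 and tested on simulated data. The SE is the log2 fold change divided by the square root of F. Alternatives were other scalings and filters, a GC-content correction (loess, span 0.5), the replicate number as a block, summed copies, DESeq2 1.42.0, limma-voom (limma 3.58.1) and each library left out. Library totals ran from 48.4 M to 58.3 M (M, 1e6), and the spread between libraries exceeded counting error.

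The members, lists and tests were chosen with earlier results of these data known. The naming rule takes all members, all other α-glucosidase, regulator and invertase genes, and, of each further list, every gene past the threshold or else the 2 with the smallest adjusted p. It also takes the 5 genes most like the most abundant member, and GAL80. The 7 ratios were chosen after the counts were seen.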

Additional observations from a re-analysis of the deposited data

How the results depend on the processing

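Of 166 combinations of a member and an alternative setting, 153 kept the direction and the side of the threshold. MAL33 passed with the GC-content correction, with DESeq2 and without parent replicate 1, and MPH2 and MPH3 passed with DESeq2. MAL11, near 0, turned to -0.0082 with upper-quartile factors, -0.042 with library totals only, -0.0312 with the GC-content correction and -0.0314 with that and the replicate block, and lay between -0.016 and 0.043 with 1 library left out. The count of members called higher became 1 with the GC-content correction and 3 with DESeq2, and ran from 0 to 1 with 1 library left out. The companion lists hold 6, 18, 4, 5 and 19 genes, with HXK2 in both glucose lists. The count of companion genes called became 8 with DESeq2, which called 13.7% of all genes. It ran from 0 to 6 with 1 library left out, the 6 without parent replicate 1, where 17.5% of all genes passed. Over all genes, 70 calls became 842 with DESeq2 and 26 with the replicate block and GC-content correction together, and ran from 15 to 1077 with 1 library left out, the last without parent replicate 1. The summed MPH pair passed with DESeq2, at 0.25, and without parent replicate 1, at 0.27 with an edgeR adjusted p of 0.0389, and ran from 0.21 to 0.27 with 1 library left out. The causes were not tested.

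Libraries of the same replicate number showed no consistent likeness: deviations from the group means correlated at 0.344, -0.363 and -0.592 for numbers 1, 2 and 3. With 3 libraries in each group these values constrain one another. The check therefore cannot decide whether samples of the same number were handled together. With the replicate block 0 members and 104 of all genes passed.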
